A study of Mus musculus with 43 samples.

Results

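RNA from pools of 10 sorted PD798 cells was compared with RNA of the bulk cell line, using 12 pools and 2 bulk libraries, or 14 of the 43 libraries of the series. PD798 is an established cell line, grown out of a tumor of the pancreas in a genetically engineered mouse. Both groups carry the alleles of that mouse, among them Pdx1-Cre, a recombinase driven by the promoter of the pancreatic gene Pdx1, with L/+ at p53 (a copy that Cre removes) and YFP/YFP at Rosa (yellow fluorescent protein, which marks the cells). For the pools, cultured cells were spiked into blood of healthy mice, white and red cells were depleted, and the remaining YFP+ cells were sorted 10 to a tube on a BD Influx sorter and lysed. The bulk RNA was purified on a column from the cell line, although the labels give the same pre-enrichment and sorting route for it as for the pools. Both kinds of input were made into cDNA with the same low-input SMART-Seq kit. Input amount, lysate against purified RNA, contact with blood and sorting all differ, or may differ, between the groups together and cannot be told apart. All libraries come from 1 line, and nothing in the labels says that they came from separate cultures, so p-values measure the spread between these libraries, which may be technical.

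The libraries were selected by their labelled cell number input. The values are TPM (transcript levels scaled to a fixed total), which correct for gene length and keep no record of read depth, so the depth of each library is unknown and no counting error can be given. A gene entered the tests when 3 or more of these 14 libraries had it at 1 TPM or above, and 12037 of the 13817 genes listed did. At the edge of this filter, 308 genes reached 1 TPM in exactly 3 libraries and 388 genes were left out with exactly 2.

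A cell holds very little messenger RNA, and full-length methods such as SMART-Seq copy it from the poly(A) tail toward the 5′ end and amplify the cDNA over many PCR cycles before sequencing. In a pool of few cells, genes used by some cells only, such as those of mitosis, are sampled from whichever cells were sorted, whereas bulk RNA averages over a whole culture. Housekeeping genes such as those of the ribosome are used by every cell.

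Pools 5 and 12 stood apart from the other 10 pools. Their log2(TPM + 1) profiles had a Pearson's r of 0.994 with each other across the 12037 genes, against 0.861 to 0.952 for the other 65 pairs of pools and 0.993 for both bulk libraries. They also had r of 0.988 to 0.993 with pools 1 to 3 of 100 cells, 0.995 with single-cell library 6 and 0.977 to 0.983 with single-cell library 9. With the other 9 single-cell libraries r was 0.648 to 0.824. With the bulk libraries, r was 0.918 to 0.925 for pools 5 and 12 and 0.784 to 0.876 for the other 10 pools. In pools 5 and 12 only 6 and 15 of the genes tested were listed at 0 TPM, against 635 to 2070 genes in the other 10 pools and 54 and 28 genes in bulk RNA. Of the 8706 genes at 10 TPM or more in both bulk libraries, pools 5 and 12 had 0 genes at 0 TPM, and the other 10 pools had 33 to 505 such genes. Whether these libraries hold the number of cells on their labels was not tested. Counts over all genes and those of some gene groups are given with and without them, and the other results with them only.

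**Figure D1:**
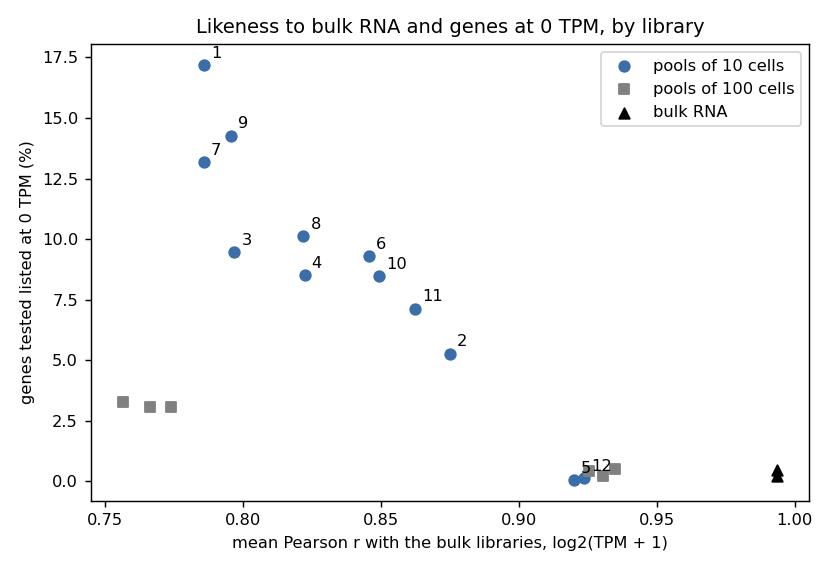
Mean Pearson's r of each library with the bulk libraries (horizontal axis) and percent of the 12037 genes listed at 0 TPM (vertical axis). Numbers name the 12 pools of 10 cells (circles), squares are the 6 pools of 100 cells and triangles the bulk libraries, each of which is set against the other. Pools 5 and 12 sit with 3 of the 100-cell pools at an r above 0.918 and near 0%, while the other 10 pools run from 5.28% to 17.2%.

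The pools carried the ductal epithelial markers of the line. The summed level of the 11 ductal markers was 17928 to 33035 TPM in the pools and 28542 and 29075 TPM in bulk RNA. Krt18, an intermediate filament keratin of simple epithelium, was at 7556 to 15646 TPM in the pools and 8780 and 8890 TPM in bulk RNA. Epcam, an epithelial adhesion protein used to capture tumor cells, was at 543 to 1311 TPM in the pools and 811 and 842 TPM in bulk RNA. For both genes the pools lay on either side of the bulk libraries, and neither passed the test (limma, adjusted p = 0.183 for Krt18 and 0.543 for Epcam).

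Cdh1, which encodes E-cadherin, the adhesion protein of epithelial junctions, was far lower in the pools. It was at 223 TPM in pool 5, 222 TPM in pool 12 and 45.4 to 124 TPM in the other 10 pools, against 939 and 929 TPM in bulk RNA, a difference of -3.12 ± 0.43 (SE) on the log2(TPM + 1) scale (limma, adjusted p = 0.000158). Cldn4, a claudin of tight junctions, went the other way, with 179 to 696 TPM in the pools and 138 and 141 TPM in bulk RNA (1.22 ± 0.43, limma, adjusted p = 0.0314). Sox9, a transcription factor of pancreatic ducts, was below both bulk libraries in all 12 pools, with 7.49 to 74.9 TPM against 102 and 111 TPM. Muc1, a mucin of the apical membrane, ranged from 0 TPM in 3 pools to 31.3 TPM, and both bulk libraries lay above all pools at 56.0 and 51.8 TPM.

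Markers of blood and acinar cells were low or uneven. Of the 6 red cell markers 1 had a row in the table, Alas2, the first enzyme of heme synthesis in red cells. It reached 1 TPM or more in 7 of the 12 pools and 83.3 TPM in pool 10, was listed at 0 in 3 pools, and was at 0.455 and 0.0950 TPM in pools 5 and 12 and 0 and 0.415 TPM in bulk RNA (2.53 ± 1.60, limma, adjusted p = 0.210). The summed level of the 3 leukocyte markers with a row, of 10 fixed, was 0 to 97.9 TPM in the pools and 45.8 and 60.9 TPM in bulk RNA, and 3 pools were at 0 for all of them. Cd79a, of B cells, was listed at 0 in both bulk libraries and 8 pools. The 2 platelet markers summed to 8.14 TPM or less in the pools, and Cela1, the acinar marker with a row, to 1.70 TPM or less. The other markers fixed were not analysed here. The part of red cell RNA in the results below was not tested.

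**Figure D2:**
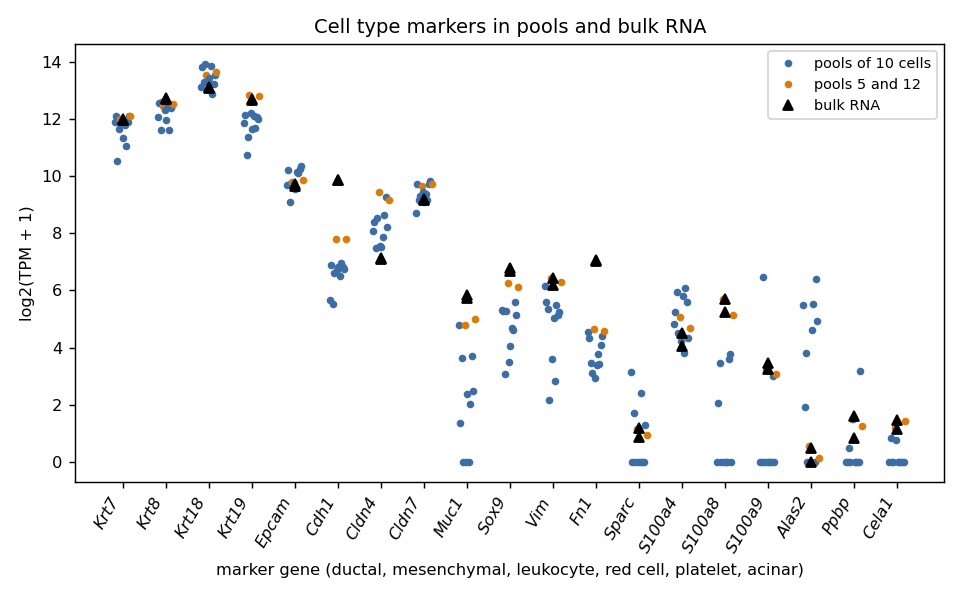
Levels of 19 marker genes, as log2(TPM + 1), in the 12 pools of 10 cells (circles, pools 5 and 12 in orange) and the bulk libraries (triangles). Cdh1 lies 45.4 to 223 TPM in the pools under a bulk level of 929 TPM or more, Krt18 and Epcam overlap with bulk RNA, and Alas2 is spread from 0 to 83.3 TPM over the pools.

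Pools and bulk RNA were separated at a large share of genes. All 12 pools lay above both bulk libraries for 1103 of the 12037 genes (9.16%) and below both for 4930 genes (41%), and 6004 genes overlapped. By limma, 955 genes were higher in the pools (7.93%) and 4028 lower (33.5%) at an adjusted p under 0.05, of which 906 and 3880 were also without overlap. The spread behind these calls was unequal, since the median gene had an SD of 0.68 (log2) over the pools and a difference of 0.084 between both bulk libraries. Leaving out 1 bulk library, so that the other is assumed to vary like the pools, lowered the limma counts to 253 and 943 genes (without the first) and 313 and 1105 genes (without the second).

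The direction of the calls depends on the scale. TPM add up to a fixed total, and the median gene was 0.88 lower in the pools (log2). With each library centred on its median gene, 3060 genes were called higher and 1042 lower, and 3401 and 1649 genes did not overlap. Quantile normalization gave 2194 higher and 1786 lower. Medians of gene groups are therefore given below also relative to the median of all genes (-0.88). Under centring the median of all genes was 0.31, and group medians on that scale are to be read against it. The limma counts of each group are followed by those under centring, to be read against 7.93% of all genes higher and 33.5% lower as deposited, and 25.4% higher and 8.66% lower under centring.

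Without pools 5 and 12, the other 10 pools lay above both bulk libraries for 1146 genes (9.52%) and below both for 5258 genes (43.7%), and limma called 996 genes higher and 4571 lower.

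Gene length moved with the difference in every pool. In genes with under 1 kb of annotated exons (all exons of the gene merged), the median difference from bulk RNA was 0.44 over the pools, and in genes with 6 kb or more it was -1.52. Each class between these lay lower than the one before, at 0.26 for 1 to 2 kb, -0.36 for 2 to 3 kb, -0.79 for 3 to 4 kb and -1.19 for 4 to 6 kb. All 12 pools were above both bulk libraries for 109 of 397 genes under 1 kb (27.5%) but for 80 of 3644 genes of 6 kb or more (2.20%). All 12 were below for 9 genes under 1 kb (2.27%) and for 2425 genes of 6 kb or more (66.5%).

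The trend was weaker in pools 5 and 12, where the class of 6 kb or more had medians of -1.08 and -0.98, than in the other 10 pools, with medians of -1.96 to -1.26. Pools 1 to 3 of 100 cells had -0.995 to -0.85 and pools 4 to 6 of 100 cells -1.90 to -1.80, against the same bulk libraries. Genes of high expression showed it too. Of the genes at 100 TPM or more in bulk RNA, those under 1 kb had a median of 0.91 and those of 6 kb or more a median of -1.45. As a share of all TPM, genes with under 2 kb of exons took 29.3% to 38.2% in the pools and 21.1% and 21.4% in bulk RNA, and genes of 6 kb or more took 8.40% to 11.7% against 19.4% and 19.1%.

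**Figure D3:**
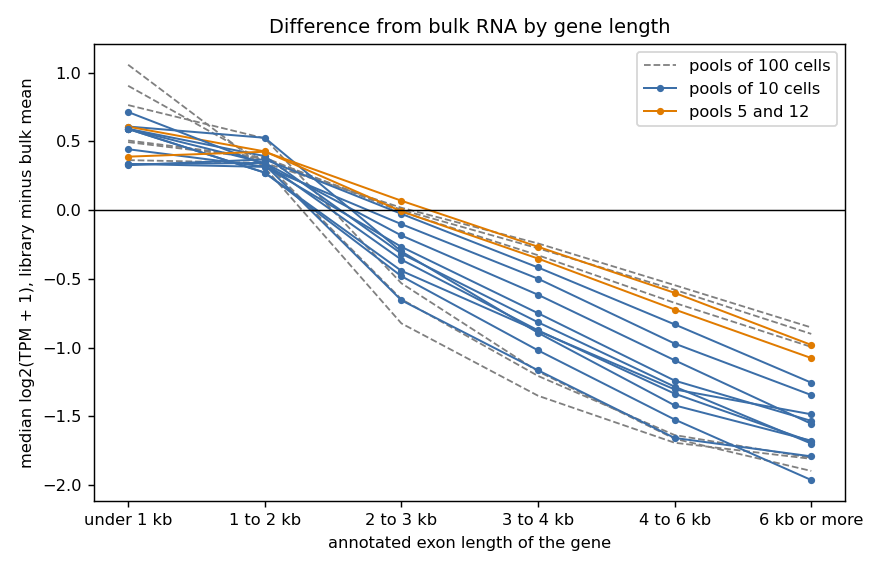
Median difference from the bulk mean on the log2(TPM + 1) scale (vertical axis) over genes grouped by annotated exon length (horizontal axis), with 1 line per library. Solid lines are the 12 pools of 10 cells, with pools 5 and 12 in orange, and dashed grey lines the 6 pools of 100 cells. In the pools of 10 cells the medians are 0.33 to 0.71 under 1 kb and -1.96 to -0.98 at 6 kb or more, and every line falls from the class of 1 to 2 kb onward.

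Base composition moved with the difference as well, in an order that was not the same in all pools. In the other 10 pools genes in the GC class with the least G and C (29.6% to 43.8%) had medians of -0.81 to -0.40 and those in the class with the most (55.6% to 78.6%) medians of -1.86 to -0.84. In pools 5 and 12 the class with the least was at -0.54 and -0.36 and that with the most at -0.34 and -0.29, the opposite order. These classes were not matched for length, with medians of 5694 bases of merged exons for the least and 3104 for the most. The part of length in either order was not tested. Among genes of 2 to 3 kb, the medians over all 12 pools were 0.058 for the least and -0.83 for the most. Removing a trend with GC content and length from each library left 387 genes higher and 3534 lower by limma, and what the trends contribute to single genes was not tested further. In the gene groups below, limma calls of 0 higher stayed at 0 at an unadjusted p under 0.05, except for 2 cholesterol genes and 1 gene each of the pancreatic lineage, p53 and lysosome groups.

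The genes most clearly separated upward included genes of nuclear transport, respiration and translation. Ranbp1, a partner of the Ran nuclear transport GTPase, was at 1298 to 1838 TPM in the pools against 609 and 631 TPM in bulk RNA (1.38 ± 0.14, limma, adjusted p = 4.04e-05). Ndufb8, a subunit of respiratory complex I, was at 772 to 1267 TPM against 319 and 343 TPM (1.47 ± 0.17, limma, adjusted p = 6.35e-05). Ssna1, a small microtubule-associated protein, was at 384 to 591 TPM against 184 and 181 TPM (1.35 ± 0.16). For all 3 genes the lowest pool was above the higher bulk library by a wide margin, pools 5 and 12 included. Sarnp, an RNA-binding protein of mRNA export, was at 362 to 670 TPM against 157 and 154 TPM, Tma7, linked to translation, at 215 to 395 TPM against 100.3 and 98.4 TPM, and Uchl3, a deubiquitinase, at 636 to 1051 TPM against 311 and 317 TPM.

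Eif2s2, the beta subunit of translation initiation factor eIF2, was at 450 to 763 TPM against 216 and 222 TPM, and the transcriptional coactivator Sub1 at 175 to 345 TPM against 87.7 and 85.1 TPM. Tsc22d1, a leucine zipper protein responsive to TGF-beta, is a long gene among them, with 8994 bases of merged exons, and was at 384 to 750 TPM against 189 and 172 TPM (1.64 ± 0.21, limma, adjusted p = 8.16e-05). In the 100-cell pools, which were compared with the same bulk libraries, the ranges were 1503 to 2117 TPM for Ranbp1, 873 to 1789 TPM for Ndufb8 and 351 to 627 TPM for Tsc22d1.

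Among the genes most clearly separated downward, 9 of 10 code for proteins and have 3779 to 14888 bases of merged exons. Erbb3, a receptor of the EGF receptor family, was at 3.05 TPM in pool 5, 3.27 TPM in pool 12 and 0 to 2.27 TPM in the other 10 pools, against 55.3 and 52.0 TPM in bulk RNA (-4.83 ± 0.58, limma, adjusted p = 7.44e-05). Furin, a protease that processes secreted proteins, was at 0.733 to 9.09 TPM against 107 and 105 TPM (-4.56 ± 0.58). In both genes the highest pool was far under the lower bulk library.

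Peg3, a paternally expressed imprinted gene, was at 3.70 to 18.4 TPM against 236 and 228 TPM, Tnks, the poly-ADP-ribosylating enzyme tankyrase, at 0.458 to 4.23 TPM against 61.6 and 57.1 TPM, and Piezo1, a mechanically gated ion channel, at 0.423 to 5.96 TPM against 66.2 and 62.7 TPM. Gpam, the first enzyme of triglyceride synthesis, was listed at 0 in 4 pools and reached 2.64 TPM, with 32.8 and 32.0 TPM in bulk RNA. The glycosyltransferase gene B4galnt3 was listed at 0 in 6 pools and reached 1.34 TPM, with 22.8 and 23.6 TPM in bulk RNA. Dennd4c, an activator of Rab GTPases, was at 0.600 to 3.2 TPM against 35.3 and 33.98 TPM. Low genes such as these understate their change, because 1 TPM was added before the logarithm.

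**Figure D4:**
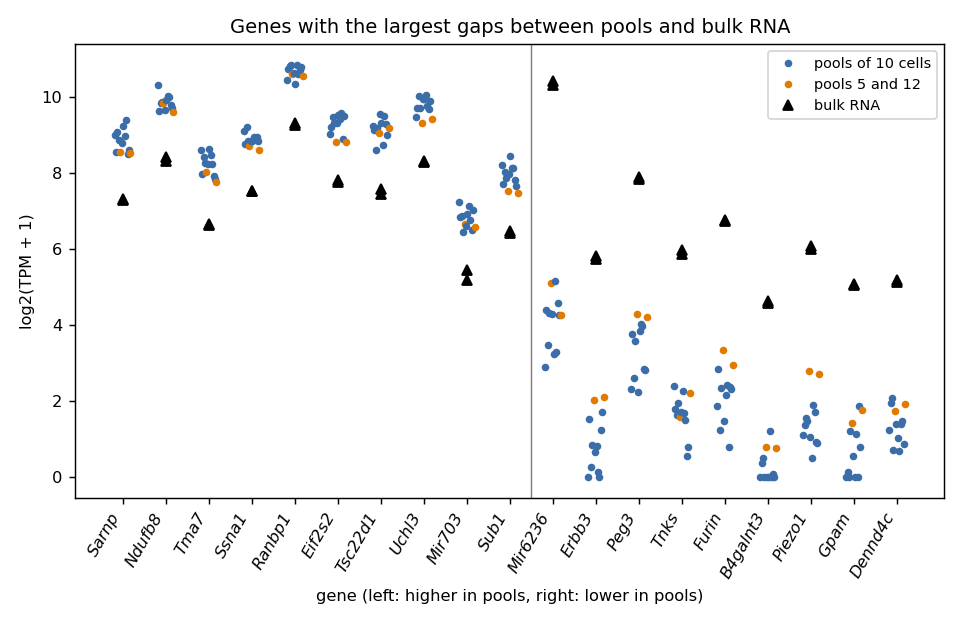
Levels as log2(TPM + 1) of the genes with the largest gap in each direction between the nearest pool and the nearest bulk library, 10 higher in the pools and 9 lower. Circles are the 12 pools of 10 cells (pools 5 and 12 in orange) and triangles the bulk libraries. Left of the line every pool lies above bulk RNA (Ranbp1 at 1298 TPM or more against 631 TPM or less), right of it every pool lies below (Mir6236 at 34.5 TPM or less against 1262 TPM or more).

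A microRNA locus was found at each of these ends. Mir6236 (chromosome 9, 110281287 to 110281409, plus strand, mm10, no other annotated gene overlapping) had the widest gap of all downward. It was at 33.7 TPM in pool 5, 18.3 TPM in pool 12 and 6.46 to 34.5 TPM in the other 10 pools, against 1351 and 1262 TPM in bulk RNA (-6.25 ± 0.49, limma, adjusted p = 3.1e-06). Mir703 (chromosome 5, 98475556 to 98475664, minus strand), which lies in an intron of Cfap299 on the opposite strand, was at 85.9 to 148 TPM against 35.5 and 42.7 TPM (1.47 ± 0.22, limma, adjusted p = 0.000265). These libraries are built from poly(A) RNA and hold reads assigned to the annotated loci of 123 and 109 bases, so the values are not levels of mature microRNA. After the trend with GC content and length was removed, Mir703 was at -1.38, beside a median of -0.91 for all genes, and Mir6236 stayed lower. With each library also centred, Mir703 was at -0.34, beside 0.13 for all genes. The mature sequences from RefSeq (GRCm38.p6) are shown to identify both loci, with the seed (bases 2 to 8) in capitals, together with the Mir703 hairpin, which is the stretch of DNA to which its reads were assigned, with the mature sequence in capitals. The seeds differ.
mmu-miR-6236: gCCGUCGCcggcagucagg
mmu-miR-703: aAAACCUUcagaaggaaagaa
Mir703 hairpin: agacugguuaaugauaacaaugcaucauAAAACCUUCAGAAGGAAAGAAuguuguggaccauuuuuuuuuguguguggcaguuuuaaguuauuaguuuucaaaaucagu

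Genes of the ribosome, respiratory chain and proteasome were higher in the pools as groups. The proteasome median turned to -0.10 once the GC and length trend was removed, beside -0.91 for all genes. Of the 80 cytosolic ribosomal protein genes tested, limma called 57 higher and 0 lower (79 and 0 under centring). At an unadjusted p under 0.05 (limma) the counts were 66 and 0. All 12 pools lay above both bulk libraries for 62 and below for 0, beside 9.16% and 41% of all genes. Without pools 5 and 12, the other 10 pools lay above for 69, beside 9.52% of all genes. The median difference was 0.69, or 1.57 relative to all genes, and the median of a single pool ran from 0.19 in pool 12 to 0.97 in pool 7. Rps15, of the small subunit, was at 683 to 1259 TPM against 462 and 452 TPM, and Rpl5, which binds 5S rRNA, at 223 to 343 TPM against 129 and 135 TPM (1.09 ± 0.17, limma, adjusted p = 0.00036). Rps27l, a p53-inducible paralog of Rps27, was at 1742 to 4114 TPM against 1085 and 1175 TPM. Its difference of 1.37 became -0.33 after the trend was removed, beside a median of -0.91 for all genes. Rps14 was at 1425 to 2473 TPM against 980 and 941 TPM. Ribosomal protein genes have many processed pseudogenes that share their sequence, so that reads could be split between copies. They are short, with a median of 1806 bases of merged exons against 4300 over all genes, and without the GC and length trend their median was 0.03, against -0.91 for all genes. With the trend removed and each library centred, limma called 55 of them higher and 0 lower, beside 2157 and 556 of 11974 genes. Together they made up 4.24% to 7.02% of all TPM in the pools and 3.51% and 3.64% in bulk RNA.

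The 82 nuclear genes of oxidative phosphorylation code for subunits and assembly factors of the respiratory complexes and ATP synthase. Limma called 66 of them higher and 2 lower (77 and 0 under centring). In all pools 67 lay above both bulk libraries and 2 below, beside 9.16% and 41% of all genes. Their median was 0.96, or 1.84 relative to all genes, with 0.57 to 1.34 over single pools. It fell to 0.13 once the GC and length trend was removed, beside -0.91 for all genes. With the trend removed and each library centred, 62 were called higher and 0 lower. Ndufa12, of complex I, was at 235 to 457 TPM against 137 and 135 TPM, and Uqcr11, of complex III, at 505 to 1131 TPM against 329 and 310 TPM. Sdha, the flavoprotein of complex II, was at 41.6 to 169 TPM against 272 and 276 TPM (-1.42 ± 0.40, limma, adjusted p = 0.0101), and Ndufs1, the largest complex I subunit, named here after its values were seen, at 31.1 to 88.9 TPM against 104 and 105 TPM.

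Of 36 proteasome genes tested, 19 were called higher and 2 lower by limma (31 and 0 under centring). Without overlap 24 lay above and 2 below, beside 9.16% and 41% of all genes. The median was 0.58 (1.45 relative to all genes). With the trend removed and each library centred, 28 were called higher and 0 lower. Psmb3 and Psmb6, of the catalytic core, were at 720 to 1007 TPM against 397 and 398 TPM and at 695 to 1079 TPM against 445 and 447 TPM. The members that fell, Psmd2 and Psmd3, code for large subunits of the regulatory cap. Psmd2 was at 134 to 401 TPM against 548 and 560 TPM (-1.10 ± 0.36), and Psmd3 at 27.7 to 238 TPM against 309 and 307 TPM. With each library centred on its median gene, the difference of Psmd2 became 0.09, beside a median of 0.31 for all genes.

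Among genes of epithelial adhesion and of the cell surface many were lower in the pools as deposited. List medians stayed negative under each scaling tried, but the limma calls became mixed. Of the 37 epithelial adhesion and keratin genes, limma called 20 lower (54.1%) and 1 higher (Cldn4), which became 10 lower and 9 higher under centring and 6 lower and 9 higher with the GC and length trend also removed. As deposited, 24 were below both bulk libraries in all pools, beside 41% of all genes (27 without pools 5 and 12, beside 43.7%). Their median was -1.61, or -0.73 relative to all genes, and in single pools it ran from -2.16 to -0.74, with pools 5 and 12 the least negative at -0.86 and -0.74. Lamb3, a chain of basement membrane laminin, was at 100.3 TPM in pool 5, 95.3 TPM in pool 12 and 6.54 to 45.2 TPM in the other 10 pools, against 434 and 443 TPM (-4.08 ± 0.77, limma, adjusted p = 0.00098). Itgb4, the integrin that binds that laminin in hemidesmosomes, was at 2.56 to 36.4 TPM against 165 and 154 TPM. The keratin genes Krt7, Krt18 and Krt19 overlapped with bulk RNA, and Krt8 was below it in all pools, at 3139 to 6245 TPM against 6592 and 6765 TPM, without passing the test (limma, adjusted p = 0.133).

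Of 11 genes of EGF family ligands and receptors tested, 7 were lower (63.6%) and 0 higher by limma (4 lower and 2 higher under centring). In all pools 7 were below both bulk libraries (63.6%, beside 41% of all genes), and the median was -1.89 (-1.01 relative to all genes). Besides Erbb3, Erbb2 was at 0.482 to 11.9 TPM against 47.8 and 46.0 TPM, the ligand Tgfa at 2.51 to 17.5 TPM against 65.1 and 69.3 TPM, and Adam10, a protease that sheds such ligands, at 11.1 to 37.8 TPM against 113 and 95.0 TPM. Of 23 targets of YAP and SRF, transcription regulators tied to cell tension and actin, 15 were lower (65.2%) and 1 higher, with a median of -1.34. Under centring 7 were lower and 7 higher, with a median of -0.16 beside 0.31 for all genes. With the trend also removed 2 were lower and 3 higher. The higher one was Tead1, the DNA-binding partner of YAP, at 10.5 to 26.3 TPM against 9.22 and 9.70 TPM, named after its values were seen. Flna, the actin crosslinker filamin A, was at 101 TPM in pool 5, 95.5 TPM in pool 12 and 17.4 to 50.7 TPM in the other 10 pools, against 834 and 806 TPM (-4.25 ± 0.46, limma, adjusted p = 4.52e-05). Amotl2 was at 14.4 to 105 TPM against 311 and 314 TPM, Lats2, a kinase of the Hippo pathway, at 1.60 to 14.7 TPM against 61.0 and 57.1 TPM, and Ajuba at 9.60 to 86.3 TPM against 171 and 167 TPM.

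Of 20 mesenchymal and matrix genes tested, 9 were lower (45%) and 0 higher, with a median of -1.44 (3 lower and 2 higher under centring). Col4a1 and Col4a2, the collagen chains of basement membranes, were at 11.4 to 53.6 TPM against 343 and 325 TPM and at 8.91 to 42.1 TPM against 257 and 251 TPM. Fn1, fibronectin, was at 6.67 to 24.3 TPM against 133 and 131 TPM, and Cdh2, N-cadherin, at 3.72 to 16.4 TPM against 56.0 and 54.1 TPM. Vim, vimentin, did not pass the test and ranged from 3.46 to 85.4 TPM, with 73.0 and 85.4 TPM in bulk RNA. Of 14 pancreatic lineage genes 7 were lower (50%) and 0 higher, but 0 lower and 1 higher under centring. The 7 included Gata4 (0 to 4.46 TPM against 13.1 and 13.2 TPM), Gata6 (0 to 7.44 TPM against 11.2 and 12.0 TPM) and the chloride channel gene Cftr (0 to 4.24 TPM against 8.03 and 9.86 TPM).

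Metabolic and stress groups had lower members in the pools, but their medians lay within 0.53 of that of all genes. Of 26 glycolysis and hypoxia genes 15 were lower (57.7%) and 0 higher by limma (3 lower and 8 higher under centring). The median was -1.41 (-0.53 relative to all genes). It became 0.0044 with the GC and length trend removed and each library centred, beside 0.13 for all genes. Hk1, which phosphorylates glucose, was at 2.38 to 37.8 TPM against 173 and 174 TPM (-4.09 ± 0.75), the lactate transporter gene Slc16a3 at 4.82 to 94.7 TPM against 153 and 157 TPM, the phosphofructokinase gene Pfkl at 17.5 to 157 TPM against 289 and 290 TPM, and Car9, a carbonic anhydrase induced by hypoxia, at 3.38 to 91.2 TPM against 121 and 123 TPM. Of 26 cholesterol synthesis and uptake genes 13 were lower (50%) and 0 higher, against 5 and 7 under centring. Their median was -0.94 and became 0.24 under centring, beside 0.31 for all genes. The lower ones included both SREBP transcription factors that drive the pathway, Srebf2 (8.20 to 56.5 TPM against 162 and 155 TPM) and Srebf1 (5.77 to 35.7 TPM against 89.4 and 81.1 TPM).

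Of 20 tRNA synthetase genes 9 were lower (45%) and 0 higher, with a median of -0.76 that turned to 0.43 under centring, where 3 were lower and 6 higher. Vars, Iars, Aars and Lars, which charge tRNAs with valine, isoleucine, alanine and leucine, had levels of 11.6 to 79.3, 16.8 to 108, 36.7 to 171 and 42.4 to 117 TPM in the pools and 229 and 232, 295 and 300, 424 and 414 and 277 and 274 TPM in bulk RNA. Of 26 integrated stress response genes 8 were lower (30.8%, beside 33.5% of all genes) and 1 higher, with a median of -0.44 that turned to 0.75 under centring, where 5 were lower and 12 higher. The higher one as deposited was the serine synthesis gene Psph (266 to 539 TPM against 258 and 260.3 TPM), named after its values were seen. Ddit4, an inhibitor of mTORC1 signalling, was at 40.7 TPM in pool 5 and 31.2 TPM in pool 12. The other 10 pools were at 0.472 to 8.13 TPM, against 117 and 108 TPM in bulk RNA (-4.24 ± 0.92, limma, adjusted p = 0.00223). Ddit4 has 1755 bases of merged exons and a GC content of 57.9%, within the class with the most G and C. The amino acid transporter genes Slc7a5 and Slc6a9 were at 16.5 to 107 TPM against 378 and 368 TPM and at 3.68 to 38.8 TPM against 116 and 120 TPM, and Aldh1l2, of mitochondrial folate metabolism, at 2.68 to 15.3 TPM against 71.4 and 72.0 TPM.

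Of 20 genes of the ER unfolded protein response 7 were lower (35%, beside 33.5% of all genes) and 2 higher, with a median of -0.43 that turned to 0.76 under centring, where 2 were lower and 9 higher. Hyou1, a large ER chaperone, was at 9.55 TPM in pool 5, 10.1 TPM in pool 12 and 0 to 6.34 TPM in the other 10 pools, against 73.7 and 72.9 TPM, and Sel1l, of ER-associated degradation, at 7.11 to 29.6 TPM against 135 and 135 TPM. The lectin chaperone gene Canx and the disulfide isomerase gene Pdia4 were at 140 to 346 TPM against 622 and 611 TPM and at 103 to 310 TPM against 476 and 458 TPM. Those called higher were Manf and Sec61b, a small ER-secreted factor and a small translocon subunit, with 189 to 727 TPM against 157 and 173 TPM and 255 to 564 TPM against 181 and 195 TPM, both named after their values were seen.

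Immediate early genes, which many stimuli induce rapidly, were called lower by limma about as often as all genes. Of 27 tested limma called 0 higher and 8 lower (29.6%, beside 33.5% of all genes), or 0 and 11 at an unadjusted p under 0.05, and 12 were below both bulk libraries in all pools (44.4%, beside 41%). Without pools 5 and 12, 16 of the 27 were below both bulk libraries in all the other pools, beside 43.7% of all genes. The median of -0.65 turned to 0.54 under centring, where 7 were higher and 3 lower. Fos and Ier2, named after their values were seen, overlapped with bulk RNA at 448 to 1543 TPM against 1442 and 1494 TPM and at 284 to 699 TPM against 438 and 446 TPM. Jun and Egr1, also named after their values were seen, were called lower without overlap. Jun was at 16.9 to 151 TPM against 188 and 185 TPM, and Egr1 at 165 to 500 TPM against 558 and 559 TPM. Other lower members included Dusp5, a phosphatase of ERK (23.6 to 131 TPM against 320 and 285 TPM), Socs3, an inhibitor of cytokine signalling (0.799 to 33.2 TPM against 67.9 and 66.1 TPM), Csrnp1 (0.089 to 16.4 TPM against 45.1 and 49.2 TPM) and Arc, listed at 0 in 8 pools, with 6.06 and 6.71 TPM in bulk RNA. Of 19 heat shock genes 5 were lower (26.3%) and 1 higher, with a median of -0.43 that turned to 0.76 under centring, where 0 were lower and 12 higher. Hspa1b and Hspa1a, near-identical copies that code for inducible HSP70 and share reads, were at 0.921 to 47.6 TPM against 76.8 and 70.2 TPM and at 0 to 15.8 TPM against 19.2 and 18.98 TPM, Hsph1 at 46.7 to 183 TPM against 232 and 228 TPM, and Bag3 at 12.9 to 47.6 TPM against 63.7 and 54.1 TPM. Hspe1, the small mitochondrial cochaperonin, named after its values were seen, was higher at 353 to 855 TPM against 232 and 252 TPM.

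Of 22 genes of NF-kB and its targets tested 6 were lower (27.3%) and 0 higher, against 1 and 4 under centring. Their median was -1.14 and became 0.05 under centring, beside 0.31 for all genes. The 6 included the inhibitors Tnfaip3 (3.18 to 24.1 TPM against 81.3 and 81.4 TPM) and Tnip1 (5.47 to 20.4 TPM against 44.4 and 50.5 TPM), Nfkb2 (2.33 to 55.9 TPM against 81.9 and 79.2 TPM) and the growth factor Csf1 (0 to 15.2 TPM against 15.4 and 17.1 TPM). Of 19 interferon and MHC class I genes tested 4 were lower (21.1%, beside 33.5% of all genes) and 0 higher, and under centring 0 were lower and 3 higher. The 4 were the peptide transporter genes Tap1 and Tap2, the peptide-loading gene Tapbp and the signalling gene Stat2, with 0 to 10.4, 0 to 9.33, 14.5 to 117 and 0.0322 to 11.9 TPM in the pools and 16.0 and 15.9, 9.77 and 11.2, 133 and 137 and 35.7 and 32.6 TPM in bulk RNA.

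**Figure D5:**
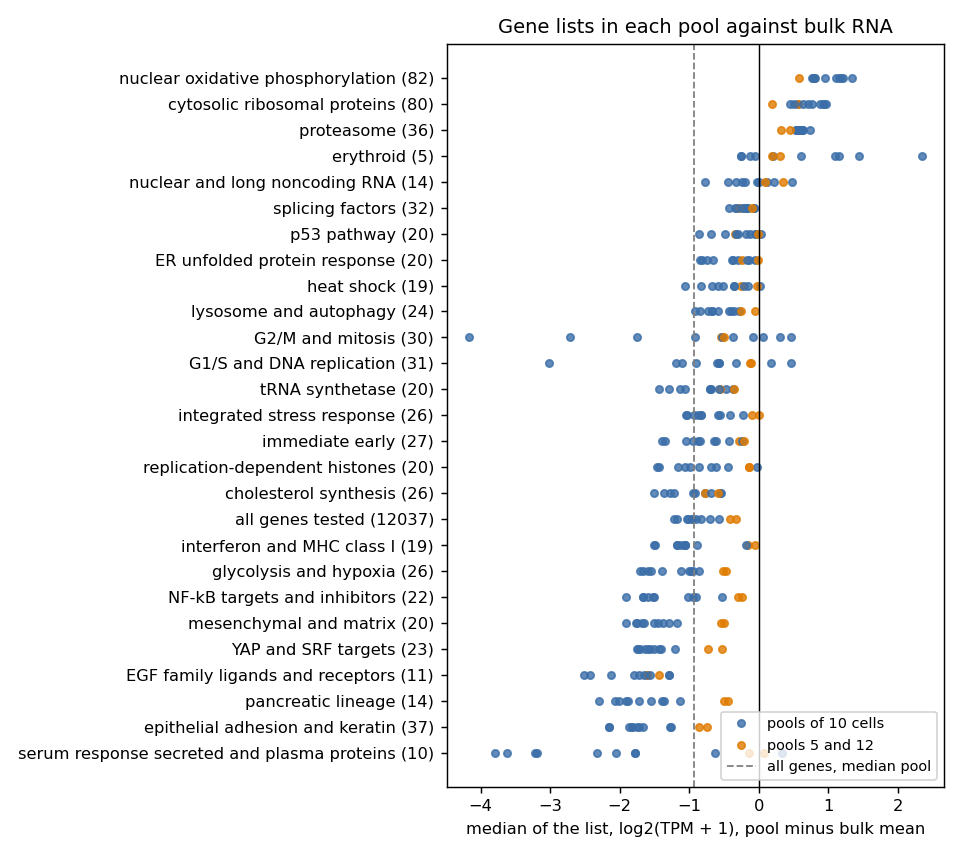
Median difference from the bulk mean, on the log2(TPM + 1) scale, of each gene list in each of the 12 pools (circles, pools 5 and 12 in orange), with the number of genes tested in brackets. The dashed line is the middle of the 12 pools' medians over all genes. Respiratory chain (0.57 to 1.34), ribosome (0.19 to 0.97) and proteasome (0.31 to 0.74) lie right of 0 in every pool, most others lie left of it, and the G2/M list is spread from -4.16 to 0.46.

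Cell cycle genes varied widely among the pools. Of 30 G2/M and mitosis genes, limma called 2 lower (Anln and Bub1b) and 0 higher (0 and 3 under centring), and the median of the list against bulk RNA was -4.16 in pool 7, -2.72 in pool 1 and -1.76 in pool 8, but 0.46 in pool 11, 0.30 in pool 2 and 0.06 in pool 6. The other pools had medians of -0.92 (pool 3), -0.55 (pool 5), -0.53 (pool 10), -0.50 (pool 12), -0.38 (pool 9) and -0.09 (pool 4). Pools 5 and 12 thus had near-equal values, as did pools 1 to 3 of 100 cells (-0.37, -0.37 and -0.61). The median SD of these genes over the pools was 1.52 (log2), beside 0.70 for all genes at 10 to 100 TPM in bulk RNA and 0.38 for those at 100 TPM or more.

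Anln, an actin-binding protein of the cleavage furrow, was at 2.80 TPM in pool 7 and 4.72 TPM in pool 1, at 37.9, 37.8 and 33.5 TPM in pools 11, 2 and 6, and at 16.2 to 21.5 TPM in the other pools, with 73.0 and 65.1 TPM in bulk RNA. Bub1b, of the spindle checkpoint, was at 39.8 TPM in pool 11, close to the 40.1 and 41.2 TPM of bulk RNA, and at 2.09 TPM in pool 1. Among 31 genes of G1/S and DNA replication, 6 were called lower and 1 higher (Rfc4, a clamp loader subunit, with overlap and named after its values were seen), against 1 lower and 8 higher under centring, and the list had a median of -3.02 in pool 7, -1.20 in pool 1, 0.46 in pool 2 and 0.18 in pool 10. Mcm2, a subunit of the replicative helicase, was at 3.14 TPM in pool 1 and 6.26 TPM in pool 7, at 55.6 and 53.04 TPM in pools 5 and 12, and at 118 and 128 TPM in bulk RNA. The DNA methyltransferase gene Dnmt1 was at 0.326 TPM in pool 7, 0.819 TPM in pool 1 and 17.5 TPM or less in the others, against 65.7 and 66.2 TPM, and its partner Uhrf1 at 0 to 30.9 TPM against 55.7 and 56.8 TPM. Chaf1a, of the chromatin assembly factor, was at 0.940 to 19.3 TPM against 51.0 and 47.1 TPM. Pools 1 and 7 were lowest for both cell cycle lists. They also had 2070 and 1587 of all genes tested listed at 0 TPM, the most and the third most of the 12 pools, and the part of that in the lists was not tested.

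Secreted acute-phase genes were as uneven. Over the 10 secreted and plasma protein genes tested the median SD among pools was 1.93 (log2), and the list median ran from -3.79 in pool 8 and -3.62 in pool 4 to 0.33 in pool 1. Limma called 3 lower (1 under centring), of which Alb and Apoa1 overlapped with bulk RNA. C3, of the complement system, was below both bulk libraries in all pools, at 7.93 to 56.0 TPM against 185 and 185 TPM. Orm1, Saa3 and Trf, an acute-phase glycoprotein, a serum amyloid and transferrin, are named here after their values were seen. Orm1 was at 672 TPM in pool 1 and 150 TPM in pool 7, at 92.1 and 86.4 TPM in pools 5 and 12, at 63.5 TPM or less in the other 8 pools, 4 of them at 0, and at 69.5 and 73.4 TPM in bulk RNA. Saa3 was at 756, 377 and 372 TPM in pools 3, 1 and 7, at 180 and 147 TPM in pools 5 and 12, at 43.3 TPM or less in the other 7, and at 115 and 120 TPM in bulk RNA. Trf ranged from 0 TPM in pool 4 to 569 TPM in pool 1, with 403 and 419 TPM in bulk RNA. For these genes pools 5 and 12 lay near each other and nearer to bulk RNA than most pools.

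Ltf, which codes for lactoferrin and is known from neutrophil granules and secretory epithelia, was called lower. It was at 78.1 and 89.1 TPM in pools 5 and 12, at 2.46 TPM in pool 1 and listed at 0 in the other 9 pools, against 133 and 122 TPM in bulk RNA (-5.79 ± 1.54, limma, adjusted p = 0.00721). S100a8 was at 51.4 and 34.5 TPM in pools 5 and 12, at 0 TPM in 6 pools and at 37.4 and 51.0 TPM in bulk RNA. S100a9 was at 88.0 TPM in pool 3, at 8.24 and 7.53 TPM in pools 5 and 12, at 0 TPM in 8 pools and at 8.45 and 9.93 TPM in bulk RNA. Of 21 neutrophil and monocyte genes fixed, 4 were tested. Bpgm, a red cell enzyme named here after its values were seen, was highest in pool 10 (87.8 TPM), which also had the highest Alas2, against 14.6 and 18.7 TPM in bulk RNA. Limma called 0 of the 5 red cell list genes tested, and 0 at an unadjusted p under 0.05, but 2 of them higher under centring. All 12 pools lay above both bulk libraries for 1 of the 5 (20%, beside 9.16% of all genes). The median of the list was 0.80, or 1.68 relative to all genes.

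Noncoding and nuclear RNA had few calls as deposited. Of 14 genes tested 1 was lower and 0 higher by limma, against 0 lower and 6 higher under centring. The lower one was Neat1, the long noncoding RNA that builds paraspeckles, at 1.74 to 33.4 TPM against 77.7 and 76.0 TPM (-3.11 ± 0.85, limma, adjusted p = 0.00867). Malat1, an abundant nuclear RNA named here after its values were seen, ranged from 210 to 2468 TPM in the pools, with 407 and 441 TPM in bulk RNA. The median of the list was -0.03, above the -0.88 of all genes, but -0.97 once the GC and length trend was removed, beside -0.91 for all genes.

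Of 32 splicing factor genes 7 were lower and 1 higher (Srsf7, at 214 to 334 TPM against 165 and 171 TPM, named after its values were seen), with a median of -0.21 (0.67 relative to all genes), although their merged exons are long (median 6974 bases). The 7 are 21.9% of the list, beside 33.5% of all genes, and under centring 2 were lower and 19 higher. Those lower were led by U2af2, which recognizes the 3′ splice site (6.45 to 49.95 TPM against 98.7 and 97.0 TPM), Hnrnpu (73.3 to 299 TPM against 718 and 701 TPM), Sf3b3 of the U2 particle (22.5 to 61.3 TPM against 205 and 208 TPM) and the large spliceosome scaffold gene Srrm2 (14.8 to 84.8 TPM against 98.6 and 99.2 TPM), whose difference of -1.85 became 0.56 with the trend removed and each library centred. Of 20 p53 pathway genes 4 were lower (20%, beside 33.5% of all genes) and 0 higher, with a median of -0.40 that turned to 0.79 under centring, where 0 were lower and 10 higher. The 4 were the DNA repair gene Xpc (4.76 to 13.6 TPM against 24.4 and 23.3 TPM), Ei24 (23.2 to 126 TPM against 175 and 168 TPM), the tumor suppressor gene Cdkn2a (0 to 4.48 TPM against 6.82 and 8.68 TPM) and Ccng1 (275 to 724 TPM against 872 and 848 TPM), the last of which was at 0.40 under centring.

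Of 24 lysosome and autophagy genes 7 were lower (29.2%) and 0 higher, with a median of -0.62 that turned to 0.56 under centring, where 2 were lower and 8 higher. Psap, the precursor of the saposins, was at 13.1 to 230 TPM against 451 and 467 TPM, the glucosidase gene Gaa at 3.63 to 42.1 TPM against 106 and 105 TPM, and the autophagy receptor gene Sqstm1 at 245 to 1205 TPM against 1934 and 1945 TPM. Gabarapl1 was at 30.9 to 135 TPM against 181 and 182 TPM. Of 20 replication-dependent histone genes tested, most of whose transcripts lack a poly(A) tail, 4 were lower and 0 higher, all with overlap (0 lower and 2 higher under centring), and Hist1h3d had the largest difference (-1.92 ± 0.69), listed at 0 in 8 pools with 5.49 and 4.35 TPM in bulk RNA.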

How the data were processed

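Full-length cDNA from 12 pools of 10 sorted PD798 cells and 2 bulk RNA samples was sequenced. The deposited values are TPM, which the authors made from reads aligned with STAR (2.52 per the labels) to mm10 with spike-in sequences, counted per gene with featureCounts, normalized by upper quartile and divided by effective length. Values were used as deposited, for 14 of the 31 libraries in the table (columns of values not mapped to a sample: 0). The separate table of the sample processing experiment was not used here.

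Groups were compared on log2(TPM + 1) with limma 3.58.1 in R 4.3.3 (moderated test with a trend, Benjamini-Hochberg adjustment over 12037 genes, threshold 0.05). Genes whose 12 pool values all lay above or all below both bulk values were counted as a description, with no p-value. Depth cannot be recovered from TPM. Exon length and GC content came from the mm10 annotation for 11974 genes. Summaries were made in Python (3.11.15) with its libraries pandas (2.3.3), numpy (2.4.6) and scipy (1.17.1). In simulated data over 12037 genes, 5% of 200 genes changed by 1 (log2) and 45.5% of those changed by 2 were recovered, with 0 and 3 false calls. The simulation gave pools and bulk RNA the same spread, whereas the bulk libraries varied far less than the pools. These rates therefore cannot be carried over to the real comparison.

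Named genes were, in each direction, the 10 with the widest gap between the nearest pool and the nearest bulk library among called genes, leaving out symbols of predicted genes, clones and pseudogenes. To these were added up to 4 called members without overlap of the largest change in each list (where there was none, the member of largest change) and the cell type markers. The groups, members and lists were chosen with earlier results of these data known. Alternatives covered the pseudocount, filter, scaling, GC and length, spread model, thresholds and libraries left out. Some genes that this rule names, and an allele of the line, are not reported here.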

Additional observations from a re-analysis of the deposited data

How the results depend on the processing

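Counts are given as genes higher and lower in the pools by limma (955 and 4028 as reported), then genes with all pools above and below (1103 and 4930). Quantile normalization gave 2194 and 1786, then 2482 and 2351, and centring on the median gene 3060 and 1042, then 3401 and 1649. With the GC and length trend removed, 387 genes were higher and 548 above. With centring added, a choice made after seeing the data like those on pools 5 and 12, the counts were 2157 and 556, then 2771 and 1233, and with pools 5 and 12 left out instead, 415 genes were higher and 601 above. Weighting libraries by group gave 1870 and 7356, fitting all 31 libraries 63 and 1320, and an adjusted p under 0.01 573 and 2197. Asking for a difference of 1 (log2) left 322 higher, and a gap of 1 left 9 above and 1782 below. Pools 5 and 12 alone gave 2441 and 6139, with 3185 above. Leaving out 1 library gave 253 to 991 higher and 943 to 4298 lower, lowest without the first bulk library, and 922 to 991 and 3838 to 4298 when a pool was left out. The other counts moved by under 1.5 times. The cause of these shifts was not tested.

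Of the 110 named genes, Ccng1 (0.40) and Psmd2 (0.087) changed sign under centring, where the median of all genes was 0.31. Mir703 (-1.38) and Rps27l (-0.33) changed sign with the GC and length trend removed. They also did so with that trend removed and pools 5 and 12 left out (-1.53 and -0.34). With the trend removed and centring added, Mir703 (-0.34) and Srrm2 (0.56) changed sign. Without a change of sign, 49 and 46 of the 110 lost their call without the first and the second bulk library, 63 with all 31 libraries in the fit, 40 under centring, 50 with the trend removed and centring, and 19 or fewer under each other alternative. Car9 was called at an adjusted p (limma) of 0.04996.

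Replicate numbers 1 and 2 occur in both groups, and deviations of same-numbered libraries had correlations of -0.0013 and 0.0013. With only 2 bulk libraries, which differed by a median of 0.084 (log2), these correlations cannot tell whether the numbers pair the libraries. A replicate block gave 950 higher and 3983 lower. Depth is unknown, so genes listed at 0 cannot be separated from genes missed.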
